A study of Arabidopsis thaliana with 22 samples.

Results

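Transcripts of the Pep danger-signal system of Arabidopsis thaliana were examined: 3 genes for peptide precursors (PROPEP1, AT5G64900; PROPEP2, AT5G64890; PROPEP3, AT5G64905) and the 2 genes for their receptors (PEPR1, AT1G73080; PEPR2, AT1G17750). The 5 genes were taken by locus identifier from 33318 rows of a seedling count table and 23318 rows of a leaf count table. All 5 have a row in the seedling table. PROPEP2 has no row in the leaf table used here, so 4 of 5 could be read in leaves. The leaf table holds 0 genes with 0 counts in every library, against 7371 such genes in the seedling table. A missing leaf row may therefore mean a gene without leaf reads, which was not tested for PROPEP2.

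The RNA-seq study concerns a pair of trihelix transcription factors, AITF1 and ASR3, and plant defence. Seedlings labelled as 10 days old were of the aitf1-1asr3-1 double mutant, with alleles of both factors, or of wild-type Col-0, sampled in triplicate (3 libraries) at 0, 1 and 3 h. What was done to the seedlings at 0 h is left unnamed by the labels, and untreated seedlings at 1 or 3 h were not analysed here, so a change with time and a response to that treatment cannot be told apart. Leaves of 3-week-old plants came from OXAITF1, a line overexpressing AITF1, and from Col-0, with 2 libraries each; the labels give neither the promoter of the transgene nor the number of lines. Nothing in the labels states that replicates were separately grown, so p-values measure only the spread between these samples, which could be technical.

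PROPEPs are small cytosolic or membrane-associated proteins whose C-terminal ends are cut free as Pep peptides, in part by the metacaspase MC4, when a plant cell is damaged. Peps then bind PEPR1 and PEPR2, leucine-rich repeat receptor kinases at the cell surface that work with the co-receptor BAK1 and set off calcium influx, an oxidative burst through RBOHD and MAP kinase signalling. The system is known as an amplifier: microbial patterns and Peps themselves raise the transcripts of several PROPEP and PEPR genes, and the precursor genes differ in how inducible they are.

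The 3 precursor genes lie side by side on the forward strand of chromosome 5 (coordinates from RefSeq TAIR10.1). PROPEP2 spans chr5:25934568-25935612, PROPEP1 spans chr5:25937078-25938176 and PROPEP3 spans chr5:25939562-25940080. The cluster covers 5513 bases, with 1465 bases between PROPEP2 and PROPEP1, 1385 bases between PROPEP1 and PROPEP3, and 0 other annotated genes in between. PROPEP3 has 1 exon and the other 2 have 2 exons each. The ends of the coding sequences encode the peptide. The last 69 bases before the stop codon are shown from 5′ to 3′ (23 codons, the length that the RefSeq note gives for the Pep1 peptide). Capitals mark bases that all 3 share at the same distance from the stop codon, without gaps.
PROPEP3: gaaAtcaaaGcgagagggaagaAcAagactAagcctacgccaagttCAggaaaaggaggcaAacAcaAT
PROPEP2: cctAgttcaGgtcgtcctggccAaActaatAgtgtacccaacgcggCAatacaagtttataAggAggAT
PROPEP1: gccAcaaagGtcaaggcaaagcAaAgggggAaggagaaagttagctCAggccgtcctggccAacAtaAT
Position by position, without gaps, PROPEP1 and PROPEP3 were identical at 49.3% of these bases. PROPEP2 was identical to PROPEP3 at 30.4% and to PROPEP1 at 26.1%. All 3 shared 11 of 69 bases, or 15.9%. Similar stretches stand further from the stop codon in PROPEP2, which shares cgtcctggcc with PROPEP1 and agttcagg with PROPEP3 at shifted positions. The percentages that include PROPEP2 are therefore no measure of how alike the peptide regions are. No stretch of 50 bases was shared, on either strand, between the gene spans (introns included) of any of the PROPEP and PEPR genes examined. Stretches that cross an exon junction were not compared.

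PEPR1 (chr1:27484240-27488204) and PEPR2 (chr1:6106323-6110120) lie on the forward strand of chromosome 1, each with 2 exons. PEPR2 is overlapped on the opposite strand by 2 annotated long non-coding RNAs (AT1G05323 and AT1G05327) and by the end of AT1G17760. No source used here gives the strand setting of the counting, so reads from PEPR2 and from these antisense neighbours cannot be told apart. The 250 bases upstream of each gene start are shown because all 5 genes were higher at 1 h than at 0 h in the data described next; capitals mark each W-box core, the letters TTGAC on either strand, which WRKY transcription factors are known to bind. The windows, all on the forward strand of TAIR10.1, are chr5:25939312-25939561 for PROPEP3, chr5:25934318-25934567 for PROPEP2, chr5:25936828-25937077 for PROPEP1, chr1:27483990-27484239 for PEPR1 and chr1:6106073-6106322 for PEPR2.
PROPEP3: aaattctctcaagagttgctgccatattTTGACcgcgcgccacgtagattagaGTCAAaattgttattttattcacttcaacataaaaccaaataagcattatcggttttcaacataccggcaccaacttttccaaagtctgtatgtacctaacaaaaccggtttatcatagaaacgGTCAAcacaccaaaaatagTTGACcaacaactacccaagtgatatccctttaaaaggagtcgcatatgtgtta
PROPEP2: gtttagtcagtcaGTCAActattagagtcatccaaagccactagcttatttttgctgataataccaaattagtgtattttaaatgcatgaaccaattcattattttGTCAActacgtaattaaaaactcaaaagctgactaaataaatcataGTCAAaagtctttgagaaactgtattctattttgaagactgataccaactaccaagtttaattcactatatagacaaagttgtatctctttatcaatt
PROPEP1: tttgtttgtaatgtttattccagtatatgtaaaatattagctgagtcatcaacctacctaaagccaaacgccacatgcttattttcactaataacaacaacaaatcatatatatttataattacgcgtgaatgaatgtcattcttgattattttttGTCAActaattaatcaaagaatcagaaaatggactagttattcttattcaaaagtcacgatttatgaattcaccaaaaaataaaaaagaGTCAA
PEPR1: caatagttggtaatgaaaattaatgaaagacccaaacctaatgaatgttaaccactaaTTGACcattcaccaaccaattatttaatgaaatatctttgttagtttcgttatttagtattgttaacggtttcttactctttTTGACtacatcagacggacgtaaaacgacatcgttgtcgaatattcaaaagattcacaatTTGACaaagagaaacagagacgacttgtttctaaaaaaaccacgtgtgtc
PEPR2: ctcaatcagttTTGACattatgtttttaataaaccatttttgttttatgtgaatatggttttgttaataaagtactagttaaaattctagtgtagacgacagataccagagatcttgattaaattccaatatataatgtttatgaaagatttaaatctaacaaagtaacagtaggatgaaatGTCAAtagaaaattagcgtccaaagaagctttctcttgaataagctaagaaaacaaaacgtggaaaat
In windows reaching from 250 bases before to 50 bases after the start, PROPEP3 held 4 W-box cores, PROPEP2 and PEPR1 held 3 each, and PROPEP1 and PEPR2 held 2 each. Over 27443 promoters of protein-coding genes of the same length, 50.5% held at least 1 core and 17.7% held 2 or more. The 2 cores of PROPEP3 nearest to its start begin 73 and 54 bases before it, and the core of PROPEP1 nearest to its start begins 5 bases before it. The GT-box letters GGTTAA, a sequence that trihelix proteins are known to bind, were searched on both strands and do not overlap with the W-box letters in these windows; they were found once, in PEPR1, 203 bases before the start, while 16.7% of all promoters hold them. A match is a description of the letters and not a binding site.

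The deposited libraries held 17.1 to 21.6 M counts in seedlings and 15.3 to 19.4 M in leaves. Levels are given as CPM, counts relative to the library total scaled by TMM factors, and levels of different genes are compared only per kilobase of exon. ASR3 was at 5.76 to 7.96 CPM in double-mutant seedlings, against 9.70 to 13.7 CPM in wild-type seedlings. The reference does not name the AITF1 locus; the trihelix gene AT3G11100, picked after its values were seen, was at 2950 to 3835 CPM in OXAITF1 leaves, against 14.4 CPM in both wild-type leaf libraries, and at 23.6 to 43.9 CPM in double-mutant seedlings, against 46.4 to 70.4 CPM in wild-type seedlings. Of 4 root markers, 2 have a row in the leaf table, and their summed level there was at most 1.98 CPM. Seedlings held 811 to 1684 CPM of the 4, nearly all of it PYK10. In bulk samples, fewer cells of a type and less RNA per cell cannot be told apart.

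All 5 genes were higher at 1 h than at 0 h in both genotypes, and the precursors PROPEP3 and PROPEP2 moved by far more than PROPEP1 or the receptors. In edgeR's quasi-likelihood test with Benjamini-Hochberg adjustment over all 21028 genes tested, 5 of 5 passed as higher at 1 h in the double mutant, where 20.3% of all genes did, and 5 of 5 in the wild type, where 25.2% did. Time changed much of the transcriptome: 39.5% of genes in the double mutant and 48.2% in the wild type were called in one direction or the other. By 3 h the 5 genes had parted. PROPEP2 and PROPEP3 remained far above their 0 h levels, whereas both receptors had fallen below their 1 h levels. The comparisons of 1 h and of 3 h with 0 h share their 0 h libraries. PROPEP2 and PROPEP3 passed the filter on low counts through their 1 and 3 h libraries. Their calls against 0 h, and their ranks given below, are therefore not independent of that filter.

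PROPEP3 encodes the precursor of Pep3. In double-mutant seedlings it had 0.761, 0.356 and 0.0948 CPM at 0 h, 13.4, 18.1 and 31.8 CPM at 1 h, and 27.9, 17.2 and 34.9 CPM at 3 h (replicates 1 to 3). In wild-type seedlings it had 0.172, 0.198 and 0.156 CPM at 0 h, 25.8, 14.8 and 45.9 CPM at 1 h, and 19.5, 23.5 and 24.9 CPM at 3 h. The libraries at 1 and 3 h all lay far above all those at 0 h. In both genotypes the third library was the highest of its group at 1 h and at 3 h. The log2 change at 1 h was 5.76 (SE 0.58, adjusted p = 1.8e-06) in the double mutant and 7.30 (SE 0.65, adjusted p = 4.0e-07) in the wild type. Ranked by log2 change among all tested genes, PROPEP3 was number 58 in the double mutant and number 19 in the wild type. The size of these changes rests on few reads at 0 h, 23 counts in 3 double-mutant libraries and 10 counts in 3 wild-type libraries, and the 95% intervals were wide, 4.53 to 6.997 in the double mutant and 5.92 to 8.69 in the wild type.

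PROPEP2, the precursor of Pep2, showed the same steep step. In double-mutant seedlings it had 0.351, 0.489 and 0.427 CPM at 0 h, 4.85, 10.3 and 10.96 CPM at 1 h, and 11.9, 9.96 and 19.4 CPM at 3 h. In wild-type seedlings it had 0.114, 0.494 and 0.571 CPM at 0 h, 9.10, 7.81 and 16.7 CPM at 1 h, and 10.4, 10.2 and 17.0 CPM at 3 h. As for PROPEP3, no library at 1 or 3 h overlapped with those at 0 h, and the third library was the highest at 1 h and at 3 h. The log2 change at 1 h was 4.33 (SE 0.50, adjusted p = 7.0e-06) in the double mutant and 4.77 (SE 0.51, adjusted p = 1.9e-06) in the wild type, ranks 131 and 110 among all genes. Here too the 0 h levels rest on 26 counts in the double mutant and 23 in the wild type.

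PROPEP1, the precursor of Pep1 and the founding member of the family, had a higher starting level and a small step. In double-mutant seedlings it had 3.16, 2.94 and 1.94 CPM at 0 h, 4.80, 4.88 and 4.74 CPM at 1 h, and 2.92, 2.28 and 2.55 CPM at 3 h. In wild-type seedlings it had 2.52, 1.93 and 1.61 CPM at 0 h, 4.41, 2.90 and 5.20 CPM at 1 h, and 3.64, 3.41 and 3.02 CPM at 3 h. The 1 h libraries lay above the 0 h libraries in both genotypes, though only just in the wild type, where replicate 2 at 1 h stood close to replicate 1 at 0 h. PROPEP1 changed by a log2 value of 0.85 (SE 0.22, adjusted p = 0.0065) at 1 h in the double mutant and by 1.04 (SE 0.23, adjusted p = 0.0015) in the wild type.

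**Figure D1:**
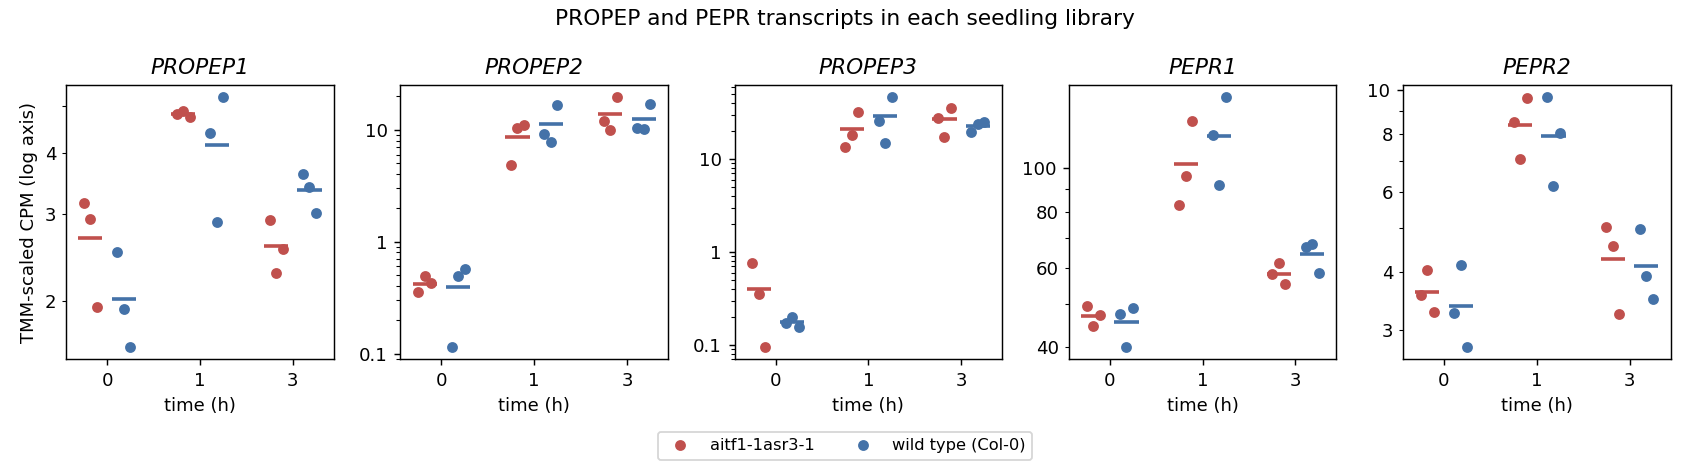
TMM-scaled CPM (log axis, a separate range per gene) of each of the 5 genes in every seedling library at 0, 1 and 3 h. Points are libraries and bars are group means, with the aitf1-1asr3-1 double mutant left of wild-type Col-0. PROPEP2 and PROPEP3 step up and stay up, whereas PEPR1 and PEPR2 peak at 1 h. The genotypes overlap at every time except PROPEP1 at 3 h, a difference that did not pass the test.

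PEPR1, the receptor that is known to bind the widest range of Peps, was about doubled at 1 h. In double-mutant seedlings it had 49.4, 44.5 and 47.1 CPM at 0 h, 82.6, 96.0 and 127 CPM at 1 h, and 58.1, 61.6 and 55.2 CPM at 3 h. In wild-type seedlings it had 47.4, 40.1 and 48.9 CPM at 0 h, 118, 91.7 and 143 CPM at 1 h, and 66.8, 67.7 and 58.5 CPM at 3 h. The 3 times formed separate bands in each genotype, lowest at 0 h and highest at 1 h. The log2 change at 1 h was 1.12 (SE 0.15, adjusted p = 3.3e-05) in the double mutant and 1.37 (SE 0.15, adjusted p = 3.2e-06) in the wild type.

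PEPR2, the second receptor, followed PEPR1 at a much lower level. In double-mutant seedlings it had 3.57, 4.05 and 3.27 CPM at 0 h, 8.52, 7.06 and 9.58 CPM at 1 h, and 5.03, 4.56 and 3.25 CPM at 3 h. In wild-type seedlings it had 3.26, 4.15 and 2.75 CPM at 0 h, 9.62, 6.16 and 8.05 CPM at 1 h, and 4.97, 3.92 and 3.49 CPM at 3 h. All 1 h libraries stood above all others of their genotype, and the 3 h libraries overlapped with those at 0 h. The log2 change at 1 h was 1.21 (SE 0.21, adjusted p = 3.0e-04) in the double mutant and 1.22 (SE 0.21, adjusted p = 2.0e-04) in the wild type. Per kilobase of exon, the level of PEPR1 was 9.36 to 17.3 times that of PEPR2 over the 18 seedling libraries, with ranges that overlapped between 0, 1 and 3 h.

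At 3 h against 0 h, 2 of 5 genes passed as higher in the double mutant, where 13.2% of all genes did, and 4 of 5 in the wild type, where 15.4% did. PROPEP3 was higher by 6.10 on the log2 scale (SE 0.58, adjusted p = 2.0e-06) in the double mutant and by 6.96 (SE 0.66, adjusted p = 2.4e-06) in the wild type. PROPEP2 was higher by 4.98 (SE 0.49, adjusted p = 3.2e-06) in the double mutant and by 4.94 (SE 0.51, adjusted p = 4.7e-06) in the wild type. The other 3 genes stood nearer to their 0 h levels than they had at 1 h. PEPR1 stood at a log2 difference of 0.31 (adjusted p = 0.17) in the double mutant and of 0.50 (adjusted p = 0.024) in the wild type. PROPEP1 stood at -0.04 (adjusted p = 0.92) in the double mutant and at 0.74 (adjusted p = 0.030) in the wild type. PEPR2 passed in neither genotype, with 0.24 in the double mutant and 0.28 in the wild type. The wild-type calls of PEPR1 and PROPEP1 were fragile. PROPEP1 lost its call without replicate 2 or 3 at 0 h, without replicate 1 or 2 at 3 h, and when only the compared libraries were fitted (adjusted p = 0.071), and PEPR1 lost its call without replicate 2 at 0 h or replicate 1 or 2 at 3 h (adjusted p up to 0.11 for PROPEP1 and 0.089 for PEPR1). In the same fit of compared libraries only, PEPR1 in the double mutant passed, at 0.32 (adjusted p = 0.013).

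Between 1 and 3 h the receptors fell. PEPR1 fell by 0.81 on the log2 scale (SE 0.15, adjusted p = 0.0014) in the double mutant and by 0.87 (SE 0.15, adjusted p = 7.1e-04) in the wild type. PEPR2 fell by 0.96 (SE 0.21, adjusted p = 0.0034) in the double mutant and by 0.94 (SE 0.21, adjusted p = 0.0040) in the wild type. PROPEP1 fell by 0.89 (SE 0.22, adjusted p = 0.0087) in the double mutant, and its wild-type difference of -0.31 did not pass (adjusted p = 0.34). That makes 3 of 5 genes lower in the double mutant, where 12.2% of all genes were, and 2 of 5 in the wild type, where 11.8% were. PROPEP2 and PROPEP3 passed in neither genotype: PROPEP2 differed by 0.66 in the double mutant and by 0.17 in the wild type, and PROPEP3 by 0.34 in the double mutant and by -0.34 in the wild type. Marker levels moved over the same time course: the summed level of 3 leaf mesophyll markers was 14000 to 15690 CPM at 0 h, 9507 to 9974 CPM at 1 h and 10760 to 11540 CPM at 3 h in the double mutant, and 11980 to 15940, 6084 to 9397 and 7642 to 11780 CPM at these times in the wild type, with 1 of 3 called lower at 1 h in the double mutant and 2 of 3 in the wild type. The summed level of 4 root markers, nearly all of it PYK10, went the other way. Like that of the receptors, this sum had its top values at 1 h, with 0 and 1 h overlapping in the wild type. It was 1092 to 1356 CPM at 0 h, 1388 to 1502 CPM at 1 h and 811 to 1052 CPM at 3 h in the double mutant. In the wild type it was 928 to 1305, 1194 to 1684 and 1016 to 1123 CPM at these times. The other root markers did not all share this course. By group means, RHD6 was highest at 1 h in both genotypes, COBL9 only in the wild type and EXPA7 in neither. Of the 4 root markers, 1 in the double mutant and 2 in the wild type were called higher at 1 h than at 0 h. At 3 h against 1 h, 2 in each genotype were called lower. Of 3 guard cell markers, 1 in the double mutant and 2 in the wild type were called lower at 1 h, whereas 0 of 3 phloem and 0 of 2 trichome markers were called in that comparison. Among all genes, 20.3% were called higher and 19.2% lower at 1 h than at 0 h in the double mutant. In the wild type 25.2% were called higher and 23% lower. The part of these cell type markers in the changes of the 5 genes was not tested.

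**Figure D2:**
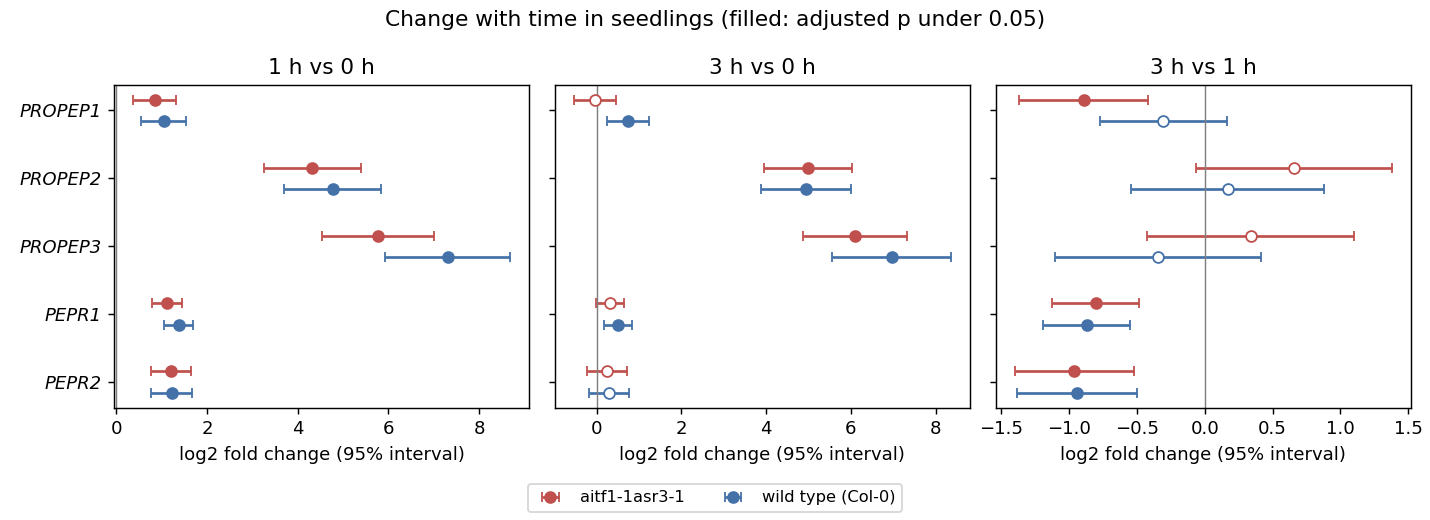
Log2 fold changes between times in seedlings with 95% intervals, from edgeR's quasi-likelihood fit, for the double mutant (upper point of each pair) and the wild type (lower point). Filled points have an adjusted p under 0.05; the horizontal ranges of the 3 panels differ. PROPEP2 and PROPEP3 lie between 4.33 and 7.30 against 0 h, and PEPR1 and PEPR2 lie between -0.96 and -0.81 for 3 h against 1 h.

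The different steps of the precursors changed which PROPEP dominated. A list of 8 PROPEP genes was used, which includes AT5G09976, a locus without a gene name in the reference. Their levels were set side by side per kilobase of exon. Their summed level was 27.3, 83.2 and 90.3 CPM per kb at 0, 1 and 3 h in the double mutant and 21.6, 99.3 and 85.5 CPM per kb in the wild type. At 0 h PROPEP6, PROPEP4 and PEP7 led, with 24.3%, 23.9% and 20.1% of the sum in the double mutant. In the wild type they held 29.8%, 23.3% and 18.6%. PROPEP6 and PROPEP5 are overlapped on the opposite strand by other annotated genes, so their shares may include reads from those genes. PROPEP3 made up 2.66% ± 1.95 (SD, n = 3) at 0 h, 47.3% ± 10.11 at 1 h and 56.1% ± 5.02 at 3 h in the double mutant, and 1.58% ± 0.244, 53.7% ± 8.54 and 50.9% ± 0.883 at these times in the wild type. PROPEP2 and PROPEP3 together held 3.48% to 6.33% of the sum in single double-mutant libraries at 0 h and 52.4% to 84.9% at 1 and 3 h, and in wild-type libraries 2.82% to 5.36% at 0 h and 63.9% to 79.9% at 1 and 3 h. Within that pair, the level of PROPEP3 per kilobase was 1.90 to 3.78 times that of PROPEP2 in all 12 libraries at 1 and 3 h.

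Of the other 5 PROPEP genes, 4 passed the filter on low counts. At 1 h against 0 h, 0 of 4 passed edgeR's test in either genotype (at an unadjusted p under 0.05, 1 in the double mutant and 0 in the wild type). Of all genes, 39.5% were called in the double mutant and 48.2% in the wild type, and 4 genes are few to set against these shares. The median log2 difference of the 4 was 0.06 in the double mutant and 0.26 in the wild type. Over all genes the median was 0.04 in the double mutant and 0.05 in the wild type. PEP7, named here after its values were seen, had 3.48 CPM at 0 h, 3.62 CPM at 1 h and 1.61 CPM at 3 h in the double mutant and 2.64, 3.31 and 2.52 CPM in the wild type. It fell by 1.12 on the log2 scale at 3 h against 0 h in the double mutant (edgeR, adjusted p = 0.030), where 6.25% of all genes were called lower.

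**Figure D3:**
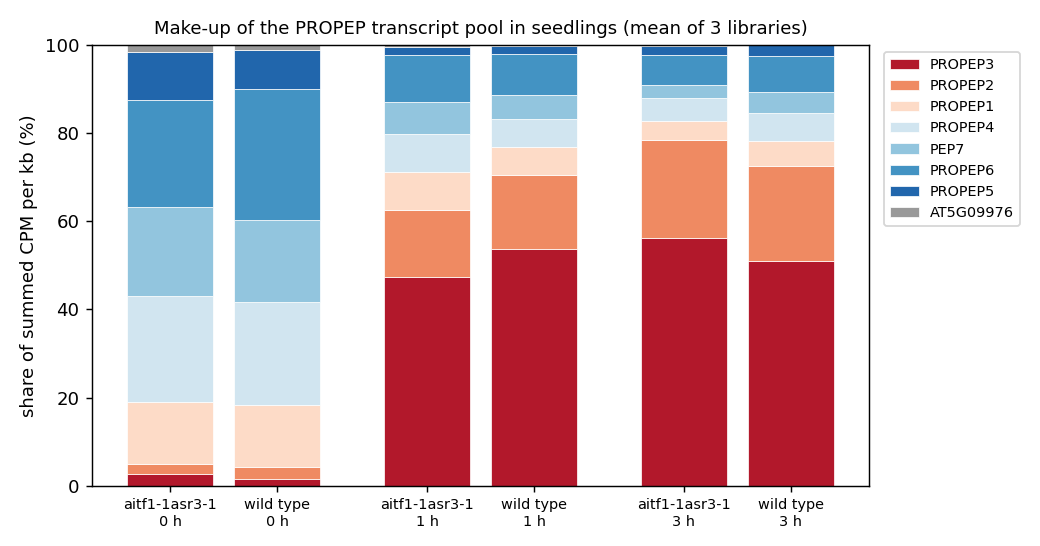
Share of each of 8 PROPEP genes in their summed CPM per kilobase of exon, in percent, as the mean of 3 seedling libraries per group, with the double mutant left of the wild type at 0, 1 and 3 h. PROPEP3 makes up 2.66% and 1.58% of the bars at 0 h and between 47.3% and 56.1% at 1 and 3 h.

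The double mutant and the wild type were next compared at each time, since the study asks how loss of both trihelix factors affects defence genes. No difference in the 5 genes passed the test. The count was 0 of 5 at 0 h, 1 h and 3 h and for the mean over times, where 0.357%, 0.262%, 0.276% and 1.11% of all genes were called. At an unadjusted p under 0.05 it was also 0 of 5 in each comparison, and DESeq2 called 0. The intervals show what these libraries leave possible. For PEPR1 the log2 difference between double mutant and wild type was 0.05 at 0 h (95% interval -0.28 to 0.38), -0.21 at 1 h (-0.52 to 0.11) and -0.14 at 3 h (-0.46 to 0.18). For PEPR2 it was 0.10 at 0 h (-0.37 to 0.57), 0.08 at 1 h (-0.34 to 0.50) and 0.06 at 3 h (-0.40 to 0.52). The intervals of the receptors were the narrow ones, and those of the induced precursors were wider.

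For PROPEP3 the genotype difference was 1.09 on the log2 scale at 0 h (-1.52 to 3.71), -0.45 at 1 h (-1.21 to 0.32) and 0.24 at 3 h (-0.53 to 1.00). For PROPEP2 it was 0.09 at 0 h (-1.57 to 1.74), -0.36 at 1 h (-1.08 to 0.37) and 0.13 at 3 h (-0.58 to 0.84). The lower means of PROPEP2 and PROPEP3 in the double mutant at 1 h rest on the third wild-type library at that time, without which their differences were 0.04 and 0.06. For PROPEP1 the difference was 0.41 at 0 h (-0.10 to 0.92), 0.21 at 1 h (-0.24 to 0.67) and -0.37 at 3 h (-0.86 to 0.11). PROPEP1 at 3 h was the one case in which the libraries did not overlap, with 2.28 to 2.92 CPM in the double mutant and 3.02 to 3.64 CPM in the wild type, but it did not pass (adjusted p = 0.81). How many of all genes were without overlap at 3 h was not counted, so this case is a description only.

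**Figure D4:**
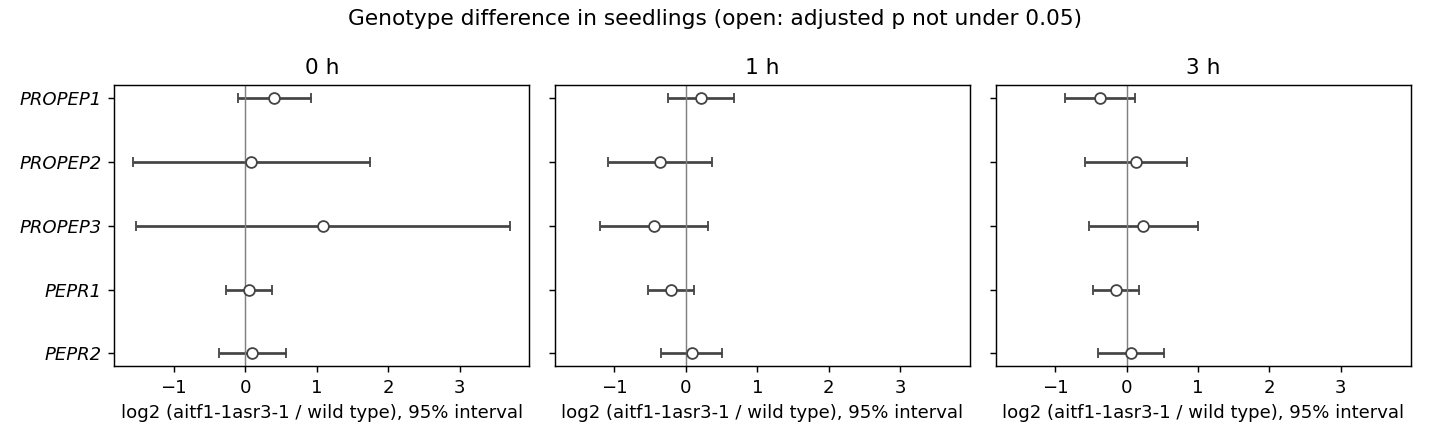
Log2 ratio of the aitf1-1asr3-1 double mutant to wild-type Col-0 for each gene at 0, 1 and 3 h, with 95% intervals from edgeR's quasi-likelihood fit. All points are open because none had an adjusted p under 0.05, all intervals include 0, and those of PROPEP2 and PROPEP3 at 0 h are the widest.

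Whether the change with time differed between genotypes was tested as an interaction. Of all genes, 0% were called at 1 h and 0% at 3 h, and 0 of 5 of the Pep genes; DESeq2 also called 0 genes at either time. At an unadjusted p under 0.05 it was 0 of 5 at 1 h and 1 of 5 at 3 h. At 3 h PROPEP1 had the lowest unadjusted p of the 5, 0.032, with a change that was 0.78 lower on the log2 scale in the double mutant (SE 0.33, adjusted p = 0.996 in edgeR's test). The larger fitted step of PROPEP3 in the wild type at 1 h corresponds to an interaction of -1.54 with a 95% interval of -4.26 to 1.18.

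In leaves, the levels of the Pep genes were lower on average in OXAITF1 than in the wild type, and no difference passed the test. PROPEP1 had 0.485 and 0.735 CPM in OXAITF1 leaves, against 0.821 and 1.90 CPM in wild-type leaves. PROPEP3 was nearly absent, with 2 and 2 counts in OXAITF1 leaves, against 4 and 1 in wild-type leaves; it was removed by the filter on low counts and no fold is given. PEPR1 had 32.1 and 31 CPM in OXAITF1 leaves, against 53.3 and 31.6 CPM in wild-type leaves, where the 2 replicates differed more from each other than either OXAITF1 library from the lower of them. PEPR2 had 1.601 and 0.276 CPM in OXAITF1 leaves, against 2.61 and 3.79 CPM in wild-type leaves. The libraries of PEPR2 and PROPEP1 did not overlap between genotypes, but the lowest PEPR2 value rests on 6 counts. Most genes of the comparison lists did not overlap in leaves either, and the share over all genes was not counted.

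Of the 3 genes tested in leaves 0 were called, where 19.8% of 18639 genes were. PEPR2 differed by -1.77 on the log2 scale (SE 0.80, edgeR adjusted p = 0.18), PROPEP1 by -1.15 (SE 0.58, adjusted p = 0.22) and PEPR1 by -0.43 (SE 0.27, adjusted p = 0.31). Unadjusted, 0 of 3 had a p under 0.05, and DESeq2 called 0. With library totals alone in place of TMM factors, the median of all genes was at 0.46 rather than 0.05 and PEPR1 was at -0.02. Without OXAITF1 replicate 1, PEPR2 passed at -3.50 (adjusted p = 0.0076), a fit in which the single remaining OXAITF1 library is assumed to vary like the wild-type pair. The summed level of 3 leaf mesophyll markers was 24670 and 33600 CPM in OXAITF1 leaves, against 70550 and 70300 CPM in wild-type leaves, and 2 of the 3 were called lower, RBCS1A, a small subunit of Rubisco (-1.99, edgeR adjusted p = 0.028), and CA1, a carbonic anhydrase (-2.77, adjusted p = 0.016). The summed level of 3 phloem markers was 297 and 215 CPM in OXAITF1 leaves, against 406 and 422 CPM in wild-type leaves, and that of 3 guard cell markers 33.2 CPM in each OXAITF1 library, against 36.9 to 42.3 CPM in wild-type leaves, with 0 of 3 called in either list. The 2 trichome markers went the other way, with 13.3 and 15.5 CPM in OXAITF1 leaves, against 3.66 and 2.39 CPM in wild-type leaves, and the 1 that could be tested, GL2, a regulator of trichome and root hair fate, was called higher (2.21, adjusted p = 0.018). The part of these markers in the leaf values was not tested. Without either wild-type leaf library and with a replicate block, 0 leaf genes were called, so that these calls ended as well. Per kilobase, PEPR1 was 19.4 and 109 times as high as PEPR2 in OXAITF1 leaves, against 19.8 and 8.08 times in wild-type leaves.

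**Figure D5:**
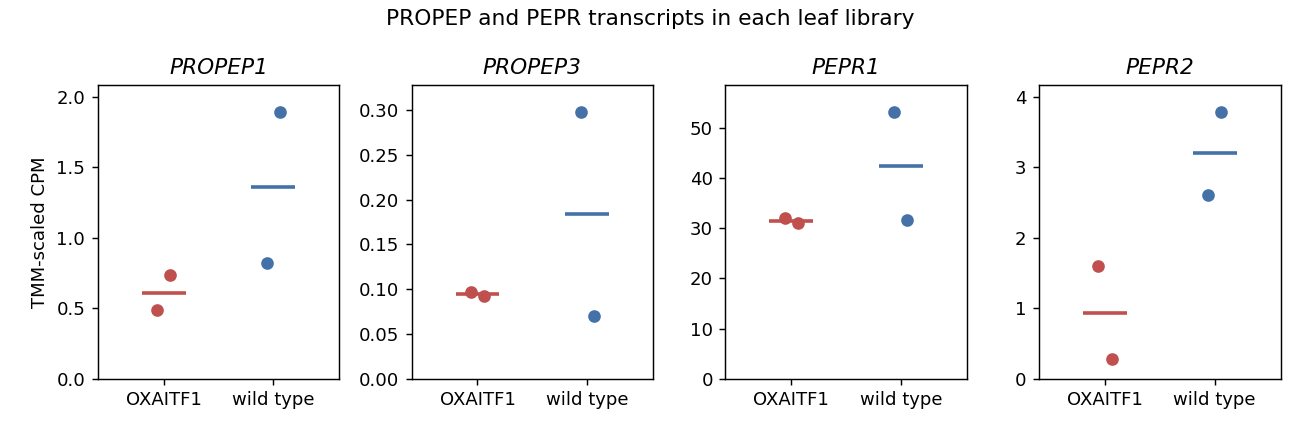
TMM-scaled CPM (linear axes from 0, a separate range per gene) of the 4 genes with a row in the leaf table, in each of 2 OXAITF1 and 2 wild-type leaf libraries. Points are libraries and bars are means. PEPR2 and PROPEP1 do not overlap between genotypes, as most genes of the comparison lists do not, whereas PEPR1 and PROPEP3 do. Of the 3 genes tested, 0 passed.

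Most partners of the receptors were also higher at 1 h than at 0 h. Of 14 genes for the co-receptors, kinases, oxidases, calcium channel, protease and transcription factor of Pep signalling, 10 were higher and 1 lower at 1 h in the double mutant (median log2 change 0.61), and 11 higher and 1 lower in the wild type (median 0.65). Over all genes, 20.3% were called higher and 19.2% lower in the double mutant, and 25.2% higher and 23% lower in the wild type. SERK4, a co-receptor related to BAK1, had the largest change of those called, 2.44 in the double mutant and 2.57 in the wild type, with means of 269 CPM at 1 h and 49.7 CPM at 0 h in the double mutant. WRKY33, a transcription factor of camalexin synthesis that binds W-boxes, changed by 1.88 in the double mutant and 2.07 in the wild type. RBOHD, the oxidase of the immune oxidative burst, changed by 1.47 in the double mutant and 1.86 in the wild type. The gene called lower was CNGC2, a cation channel subunit, at -0.49 in the double mutant and -0.51 in the wild type, named here after its value was seen. At 3 h, 10 of 14 were higher than at 0 h and 0 lower in each genotype, where 13.2% of all genes were higher and 6.25% lower in the double mutant, and 15.4% higher and 11.1% lower in the wild type. In the comparison of genotypes 0 of 14 were called by edgeR at 0, 1 or 3 h, nor did any have an unadjusted p under 0.05.

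In OXAITF1 leaves 1 of these 14 genes was called, where 19.8% of all genes were. MC4, the metacaspase that cuts PROPEP1, was lower by a log2 value of -0.59 (SE 0.13, edgeR adjusted p = 0.044), with 83.3 CPM in each OXAITF1 library, against 125 and 127 CPM in wild-type leaves. The call ended without either wild-type leaf library and with a replicate block, as all leaf calls did.

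Other surface receptors were set beside PEPR1 and PEPR2. Of 10 receptors and adaptors for other ligands, 8 were higher and 1 lower at 1 h in each genotype, with a median log2 change of 1.53 in the double mutant and 1.56 in the wild type; the shares over all genes were the 20.3% higher and 19.2% lower in the double mutant and 25.2% higher and 23% lower in the wild type given above. The changes of PEPR1 and PEPR2 given above were below these medians in each genotype. MIK2, a receptor kinase for SCOOP peptides, changed by 2.42 in the double mutant and 2.39 in the wild type. RLP23, the receptor of the nlp20 pattern, changed by 2.29 in the double mutant and 2.24 in the wild type, at levels under 2 CPM. CERK1, the chitin co-receptor, changed by 2.09 in the double mutant and 2.20 in the wild type. The gene called lower was FERONIA (FER), a receptor of RALF peptides, at -0.33 in the double mutant and -0.30 in the wild type, named after its value was seen. Between 1 and 3 h, 6 of the 10 fell in each genotype, where 12.2% of all genes in the double mutant and 11.8% in the wild type did, and 0 of 10 passed edgeR's test between genotypes at 0, 1 or 3 h (at an unadjusted p under 0.05, 0 at 0 h, 1 at 1 h and 1 at 3 h). In OXAITF1 leaves RLP23 was higher by 1.89 (SE 0.15, edgeR adjusted p = 0.014), with 71.5 and 72.3 CPM, against 17.9 and 20.8 CPM in wild-type leaves, a call that likewise ended without either wild-type library and with a replicate block.

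Genes with the most similar course over the 6 seedling groups were sought among 19454 genes with a mean of at least 1 CPM, by the root mean square difference of group means of log2 CPM, each gene centred on its own mean. The closest to PROPEP3 were IGMT2 (0.161 log2 units), an indole glucosinolate methyltransferase, and GSTF6 (0.329), a glutathione transferase; the median over all candidates was 2.88. Both belong to families with near-identical copies, so their counts are uncertain. The closest to PROPEP2 were AT1G57630 (0.117) and AT4G01700 (0.125), with a median of 2.14, and those to PROPEP1 were AT1G53640 (0.0698) and NAC036 (0.0710), with a median of 0.442. For PEPR1 they were AT1G11330 (0.0482) and AT2G20110 (0.0492), and for PEPR2 AT1G53110 (0.0403) and AT1G51805 (0.0556), with a median of 0.530 for each receptor. In log2 units PROPEP3 had no neighbour as close as the other 4 genes had. Such distances grow with the size of a gene's changes, and the median of PROPEP3 over all candidates was also the largest, at 2.88.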

How the data were processed

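The deposited files hold raw counts of reads for each gene, which the authors made with HISAT2 2.1.0 and featureCounts (Subread 1.6.5) on TAIR10, per the submitters' processing notes; no source used here gives the annotation release, the strand setting or the treatment of multi-mapping reads. Growth notes give another seedling age than the sample labels, and the extraction notes mention leaves for every sample. Groups came from the labels. In R 4.3.3, edgeR 4.0.16 (limma 3.58.1) dropped low-count genes by filterByExpr, library sizes were scaled by TMM, and glmQLFit with glmQLFTest applied to the 4 leaf libraries (2 residual degrees of freedom) and, in one fit, to the 18 seedling libraries (12), giving 13 comparisons. P-values were two-sided and adjusted by Benjamini-Hochberg over all genes of a comparison; calls have an adjusted p under 0.05. Standard errors and 95% intervals derive from the F statistics. The scripts were tested on simulated data. Depth sets the precision of low levels: 1 count is worth 0.0459 to 0.0746 CPM in leaf libraries and 0.0445 to 0.0585 CPM in seedling libraries.

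The 5 genes and the comparison lists were chosen with earlier results of these data known. All 5 genes are described everywhere; other list genes are named only if called in leaves, in a genotype comparison, or among the 3 largest called changes at 1 h (exceptions are stated), and 2 genes of most similar course are named per gene. Replicate numbers shared between groups were checked after removal of group means. In seedlings, 19 of 45 same-number pairs correlated above 0.1, against 15 of 90 pairs with different numbers. Median correlations were 0.0726 and -0.0487, so same-number pairs were somewhat more alike. With 2 libraries per group, leaf libraries mirror each other and give no such check. The labels do not say that the numbers pair libraries, so the main fits did not pair them and a replicate block was an alternative. Alternatives were other scalings (RLE, library totals), no or a stricter filter, a replicate block, DESeq2 1.42.0, the compared libraries only, and each library left out. Sequences and coordinates are from RefSeq TAIR10.1.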

Additional observations from a re-analysis of the deposited data

How the results depend on the processing

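Among values of single genes under all alternatives, 874 kept direction and side of the threshold, 40 changed sign, 8 lost and 3 gained a call. The 5 calls at 1 h against 0 h in each genotype held under every alternative run, as did those of PROPEP2 and PROPEP3 at 3 h against 0 h and of both receptors at 3 h against 1 h. Leaving out 1 library gave 2 to 4 of 5 genes called for the wild type at 3 h against 0 h and 0 to 1 in leaves. Counts of all genes called ranged from 0 (without either wild-type library) to 6164 (without OXAITF1 replicate 1) in leaves, from 48 to 63 for genotype at 0 h, 3216 to 6312 (wild type, 3 h against 0 h), 3451 to 4884 (wild type, 3 h against 1 h), 2593 to 3458 (double mutant, 3 h against 0 h) and 3620 to 4462 (double mutant, 3 h against 1 h).

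Library totals alone called 6399 leaf genes, 5271 higher and 1128 lower, against 1745 and 1947. With only the compared libraries, all-gene calls were 34, 17 and 28 for genotype at 0, 1 and 3 h, 3293 for the wild type at 3 h against 0 h and 3282 at 3 h against 1 h (fewer samples). DESeq2 called 110 at 1 h, 101 at 3 h and 508 for the mean over times; the cause was not tested. The replicate block called 0 leaf genes (1 residual degree of freedom) and PROPEP2 at 3 h against 1 h in the double mutant (0.66, adjusted p = 0.036).

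Sign changes concerned differences that were not called. The interaction of PROPEP2 at 3 h was -0.013 with library totals alone. Without 1 library, genotype differences ranged as follows: at 0 h PROPEP2 -0.32 to 0.43, PEPR1 -0.033 to 0.11 and PEPR2 -0.032 to 0.28; at 1 h PROPEP2 -0.56 to 0.041, PROPEP3 -0.87 to 0.057 and PEPR2 -0.076 to 0.25; at 3 h PROPEP2 -0.20 to 0.42, PROPEP3 -0.0017 to 0.47 and PEPR2 -0.075 to 0.22; and for the mean over times PROPEP2 -0.19 to 0.086. In time, PROPEP2 ranged from -0.12 to 0.57 and PROPEP3 from -0.64 to 0.16 in the wild type at 3 h against 1 h, and PROPEP1 from -0.23 to 0.081 in the double mutant at 3 h against 0 h. Interactions ranged from -0.20 to 0.16 (PEPR2, 1 h), -0.22 to 0.12 (PEPR2, 3 h) and -0.30 to 0.44 (PROPEP2, 3 h). Depth limits PROPEP2 and PROPEP3 at 0 h and PROPEP3 in leaves.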
